A study of Arabidopsis thaliana with 10 samples.

Results

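The genes described here are the 8 subunits of Polycomb repressive complex 2 (PRC2) and the 2 chromatin remodelers of the PICKLE family that were measured in seeds of *Arabidopsis thaliana*. They are listed by locus identifier, with no threshold on their values, although earlier results of these data were known when the list was drawn up. They make up 10 of the 33602 genes in the expression table. *MEDEA* (*MEA*), *CURLY LEAF* (*CLF*) and *SWINGER* (*SWN*) encode the Enhancer of zeste class, *FERTILIZATION INDEPENDENT SEED2* (*FIS2*), *VERNALIZATION2* (*VRN2*) and *EMBRYONIC FLOWER2* (*EMF2*) the Suppressor of zeste 12 class, and *FIE* and *MSI1* the WD40 subunits. *PICKLE* (*PKL*) and *PICKLE RELATED2* (*PKR2*) encode the remodelers.

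In TAIR10.1, *MEA* is AT1G02580 (chr1:544733-549202), *CLF* is AT2G23380 (chr2:9955092-9960386) and *SWN* is AT4G02020 (chr4:886580-891987). *FIS2* is AT2G35670 (chr2:14992565-14996756), *VRN2* is AT4G16845 (chr4:9476069-9479878) and *EMF2* is AT5G51230 (chr5:20823644-20829644). *FIE* is AT3G20740 (chr3:7248809-7252452, the only one on the minus strand) and *MSI1* is AT5G58230 (chr5:23556012-23558245). *PKL* is AT2G25170 (chr2:10713807-10724106) and *PKR2* is AT4G31900 (chr4:15431350-15438678).

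RNA was sequenced from seeds of 20 siliques per library at 6 days after pollination (DAP), with 2 libraries for each of 5 crosses, in which all mothers were wild-type L*er* plants. Triploid *adm-2*, triploid *suvh7-1* and triploid *peg2* seeds were sired by *osd1* plants that also carried the *adm-2*, the *suvh7-1* or the *peg2* mutation, triploid seeds (3n) came from *osd1* pollen and diploid seeds (2n) from wild-type Col pollen. The *osd1* mutation lets pollen keep the unreduced chromosome set, so that all 4 triploid groups carry it, on paternal chromosomes only. It was found in Nossen and backcrossed into Col, and *suvh7-1* and *peg2* are T-DNA insertion lines. RNA of no other allele of these genes was sequenced. In the study, an independent *suvh7* allele also rescued triploid seeds, and a genomic *PEG2* construct reversed the rescue by *peg2*. The maternal alleles of *ADM*, *SUVH7* and *PEG2* are intact in every group, and whole seeds hold maternal seed coat beside endosperm and embryo. The crosses ask how the extra paternal genome changes expression in the seed, and what the loss of each paternal gene alters in triploid seeds.

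PRC2 represses genes by trimethylating lysine 27 of histone H3 (H3K27me3). Plants assemble several versions of the complex from alternative subunits, and the version with MEA, FIS2, FIE and MSI1 acts in the female gametophyte and the endosperm, where it restrains endosperm proliferation. CLF or SWN with EMF2 or VRN2 act in sporophytic tissues, which in the seed include the embryo and the seed coat. *MEA* and *FIS2* are imprinted and expressed from the maternal alleles in endosperm, whereas *PKR2* belongs to the paternally expressed genes. PKL promotes the switch from embryonic to vegetative growth and is needed for normal H3K27me3 at embryonic regulators.

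*PKR2*, *FIS2* and *MEA* stood apart from the other 7 genes in the comparison of triploid with diploid seeds, and the 250 bases before their annotated starts are shown because these are the genes with higher levels in triploid seeds. Sequences are those of RefSeq, build TAIR10.1, on the plus strand, written 5′ to 3′, with *PKR2* at chr4:15431100-15431349, *FIS2* at chr2:14992315-14992564 and *MEA* at chr1:544483-544732. Capitals mark the RY motif CATGCA, bound by B3 factors of the seed maturation program, and the TATA motif TATAAA, either of them on either strand.
PKR2: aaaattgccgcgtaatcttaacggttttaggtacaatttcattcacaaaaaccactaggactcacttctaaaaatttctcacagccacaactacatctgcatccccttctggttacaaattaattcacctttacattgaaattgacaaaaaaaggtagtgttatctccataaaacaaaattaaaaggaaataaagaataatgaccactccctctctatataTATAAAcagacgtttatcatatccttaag
FIS2: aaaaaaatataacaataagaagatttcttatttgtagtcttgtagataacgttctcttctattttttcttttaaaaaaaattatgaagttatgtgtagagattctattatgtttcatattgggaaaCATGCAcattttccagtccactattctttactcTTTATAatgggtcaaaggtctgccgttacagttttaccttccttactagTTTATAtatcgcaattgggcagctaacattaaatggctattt
MEA: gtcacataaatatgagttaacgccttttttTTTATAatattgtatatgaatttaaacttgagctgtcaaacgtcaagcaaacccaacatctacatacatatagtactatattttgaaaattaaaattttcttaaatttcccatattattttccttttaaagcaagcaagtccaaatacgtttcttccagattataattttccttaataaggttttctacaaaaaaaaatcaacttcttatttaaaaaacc
The RY motif stands 119 to 124 bases before the start of *FIS2*, and 8.43% of 27443 such windows in the genome hold it. *FIS2* was the only one of the 10 genes with this motif. The TATA motif lies 24 to 29 bases before the start of *PKR2*, 37 to 42 and 86 to 91 bases before that of *FIS2* and 215 to 220 bases before that of *MEA*. It was found in 5 of the 10 genes, the others being *EMF2* and *PKL*, and in 47.3% of all windows. GAGAGA, a repeat bound by BASIC PENTACYSTEINE factors, was present before *MSI1* and *CLF*, so in 2 of 10 windows and in 20.6% of all windows. The telobox AAACCCTA and the CArG-box of MADS-domain factors occurred in 0 of the 10 windows, in 4.49% and 2.52% of all windows. All searches covered both strands, no match of a motif overlapped one of another in these windows, and a match describes letters only.

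Expression values are RPKM as made by the authors, read numbers scaled to the length of the gene and to the mapped reads of the library. From the value of a single read in genes with 1 exon, the libraries hold an estimated 53600000 to 70700000 counted read ends, and RPKM was above 0 for 24106 to 25085 genes. The estimate puts 143 to 384 read ends behind *MEA* and 156 to 583 behind *FIS2* in a library, and at least 666 behind each of the other genes. Ribosomal RNA took 9.24% to 17.3% of summed RPKM, with the highest share in replicate 1 of triploid seeds. Each mutated gene was lowest, among the triploid groups, in its own mutant. *ADM* had 0.251 and 0.237 RPKM in triploid *adm-2* seeds against 2.42 and 4.01 RPKM in triploid seeds. *SUVH7* had 0.640 and 0.956 RPKM in triploid *suvh7-1* seeds against 3.09 and 3.16 RPKM in triploid seeds, and *PEG2* 0.238 and 0.0808 RPKM in triploid *peg2* seeds against 3.54 and 4.10 RPKM in triploid seeds. *PEG2* was also low in triploid *suvh7-1* (0.646 and 0.605 RPKM) and *adm-2* seeds (1.34 and 0.908 RPKM). *ADM* had 0.758 and 0.706 RPKM in triploid *suvh7-1* seeds but 2.82 and 2.23 RPKM in triploid *peg2* seeds. *SUVH7* was between 3.02 and 3.19 RPKM in triploid *adm-2* and *peg2* seeds. *OSD1* had between 0.864 and 3.35 RPKM in the 8 triploid libraries against 8.83 and 7.02 RPKM in diploid seeds. The libraries are seed pools collected in duplicate, so p values measure the spread between such pools only.

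Triploid seeds differed from diploid seeds in all 10 genes. *PKR2* was 5.73-fold higher, *FIS2* 2.55-fold and *MEA* 2.06-fold, whereas *CLF* reached 0.506 times, *FIE* 0.595 times and *SWN* 0.710 times the diploid level. *VRN2*, *PKL*, *EMF2* and *MSI1* were also lower, at 0.734 to 0.875 times the diploid level. Each gene was tested with limma on log2(RPKM + 0.1) across 26601 genes and called at an adjusted p under 0.05. By this rule 3 of the 10 were higher, where 19.5% of all tested genes were, and 7 of the 10 were lower, where 25.2% of all tested genes were. The median log2 fold change was -0.29 over the 10 genes and -0.012 over all genes. A fit to the diploid and triploid libraries alone called 6 of the 10, and its share of all genes is not given here. A rewritten version of the rank product, the kind of test used in the study, called 0 of 10 and 279 of all 26601 genes. These are not the study's own calls. At an unadjusted one-sided p under 0.05 the rank product had 2 of the 10. The share of all genes at that level was not counted. In whole seeds, fewer cells of a type and less RNA per cell cannot be told apart.

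**Figure D1:**
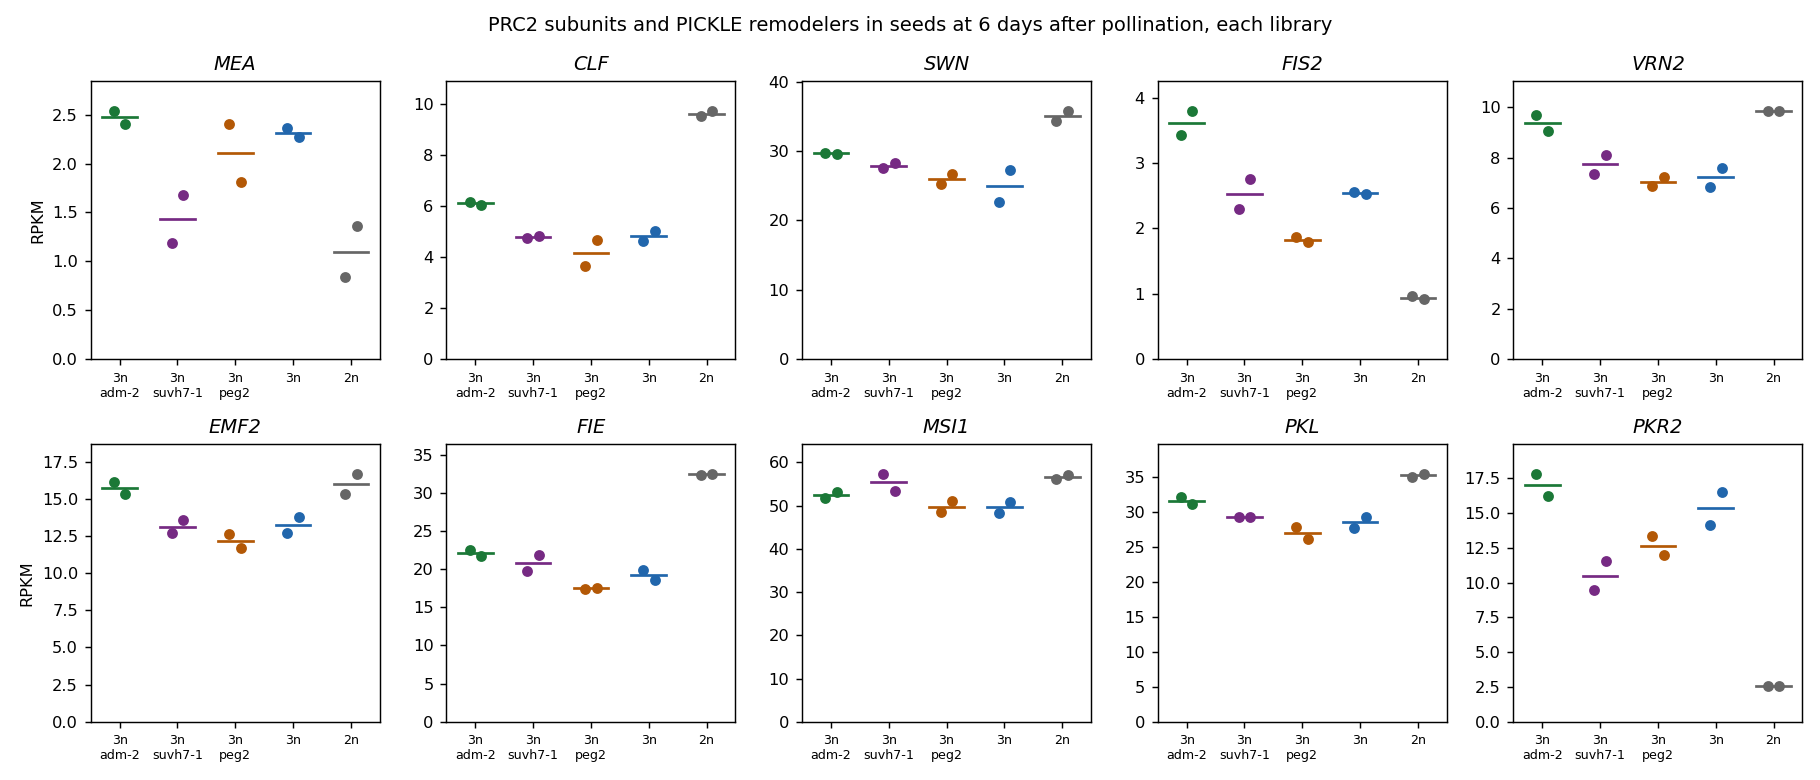
RPKM (y axis, from 0, a scale for each gene) of the 8 PRC2 subunits and 2 PICKLE remodelers in the 5 groups (x axis). Points are the 2 libraries of a group and lines their means. *PKR2* lies between 9.46 and 17.8 RPKM in the 8 triploid libraries, against 2.60 and 2.58 RPKM in diploid seeds. *FIE*, *CLF*, *SWN*, *VRN2* and *PKL* lie below both diploid libraries in all 8.

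Marker genes of seed tissues and pollen also differed between these groups. Of all tested genes 19.5% were called higher and 25.2% lower, the background for the marker counts that follow. Summed RPKM of 7 embryo markers was 11.4 to 11.95 in triploid seeds against 33.9 to 36.1 in diploid seeds, with 1 marker called higher, 4 lower and none at 0. Of 7 endosperm markers 3 were called higher and 3 lower, with sums of 42.7 to 51.8 in triploid seeds against 48.3 to 52.3 in diploid seeds, and *MINI3*, an endosperm regulator of seed size, was listed at 0 in 1 diploid library. Of 8 seed coat markers 4 were called higher and 1 lower, with sums of 1437 to 1456 in triploid seeds against 1190 to 1244 in diploid seeds, and none was at 0. Of 8 pollen markers 7 were called higher, with sums of 14.3 to 28.3 in triploid seeds against 3.06 to 6.00 in diploid seeds, where *PPME1* and *ANX2* were at 0 in 1 library. The part of these shifts in the levels of the PRC2 and PICKLE genes was not tested.

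Among the catalytic subunits, *MEA* had 2.36 and 2.27 RPKM in triploid seeds against 0.839 and 1.36 RPKM in diploid seeds. It is the catalytic subunit of the seed-specific complex and had the lowest level of its class. The groups did not overlap, although the diploid libraries were far apart. The log2 fold change was 1.05 (SE 0.26, adjusted p = 0.0112), but the call was lost without replicate 1 of diploid seeds (adjusted p = 0.0752), without replicate 1 of triploid seeds (0.0521) and in the fit to these groups alone (0.0734). *CLF*, the main methyltransferase of vegetative and floral tissue, had 4.62 and 5.03 RPKM in triploid seeds against 9.51 and 9.73 RPKM in diploid seeds. Both triploid libraries were well below both diploid ones, and the log2 fold change was -0.98 (SE 0.12, adjusted p = 0.000319). *SWN*, which is partly redundant with *CLF*, was the most abundant of the 3 with 22.7 and 27.3 RPKM in triploid seeds against 34.4 and 35.8 RPKM in diploid seeds. The groups did not overlap, with a log2 fold change of -0.49 (SE 0.09, adjusted p = 0.00203), and the call was lost only in the fit to these groups alone (0.0553) and by the rank product.

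In the Suppressor of zeste 12 class, *FIS2* had 2.56 and 2.53 RPKM in triploid seeds against 0.965 and 0.913 RPKM in diploid seeds. The replicates lay close together in both groups, and the log2 fold change of 1.35 (SE 0.15, adjusted p = 0.000152) passed the test in all 18 limma alternatives, with adjusted p between 3.82e-05 and 0.0121. *FIS2* overlaps a neighbouring gene, AT2G35680, in the annotation, and strand-specific counting is not stated. *VRN2*, which maintains repression of *FLC* after cold, had 6.84 and 7.58 RPKM in triploid seeds against 9.84 and 9.86 RPKM in diploid seeds. Its log2 fold change was -0.45 (SE 0.09, adjusted p = 0.00451) with no overlap of the groups. *EMF2*, which represses flowering during vegetative growth, had 12.7 and 13.8 RPKM in triploid seeds against 15.3 and 16.7 RPKM in diploid seeds. The log2 fold change of -0.27 (SE 0.08, adjusted p = 0.0258) was not called without replicate 1 of triploid seeds (0.104), without replicate 2 of diploid seeds (0.132) or in the fit to these groups alone (0.101).

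Of the WD40 subunits, *FIE*, the homolog of Extra sex combs, had 19.9 and 18.6 RPKM in triploid seeds against 32.3 and 32.5 RPKM in diploid seeds. The libraries of a group differed little beside the distance between groups, and the log2 fold change was -0.75 (SE 0.07, adjusted p = 4.95e-05). *MSI1*, which is also part of chromatin assembly factor 1, was the most abundant of the 10 genes with 48.4 and 50.8 RPKM in triploid seeds against 56.2 and 57.1 RPKM in diploid seeds. Its log2 fold change of -0.19 (SE 0.06, adjusted p = 0.032) was the smallest of the 10, and the call was lost in 8 of 18 limma alternatives. These included rescaling by size factors (adjusted p = 0.123) and leaving out replicate 1 of triploid seeds (0.105), either replicate of diploid seeds (0.0791 and 0.105) or either of triploid *adm-2* seeds (0.0521 each). *FIE*, *MSI1*, *CLF* and *PKL* overlap annotated neighbours, and reads shared with these cannot be assigned.

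Of the remodelers, *PKL* had 27.7 and 29.3 RPKM in triploid seeds against 35.0 and 35.5 RPKM in diploid seeds. The groups did not overlap and the log2 fold change was -0.31 (SE 0.06, adjusted p = 0.00302). *PKR2* had 14.2 and 16.5 RPKM in triploid seeds against 2.60 and 2.58 RPKM in diploid seeds. Its log2 fold change of 2.52 (SE 0.12, adjusted p = 1.72e-06) was the largest of the 10 genes and passed the test in all 18 limma alternatives. The rank product, which called 279 of all genes, did not call *PKR2*. There *PKR2* had the lowest pfp (percentage of false prediction) of the 10 at 0.244.

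RPKM is scaled to gene length, so that levels can be compared within a class. *MEA* made up 7.97% and 6.57% of the summed RPKM of *MEA*, *CLF* and *SWN* in triploid seeds against 1.88% and 2.90% in diploid seeds. *CLF* held 15.1% ± 0.738 in triploid seeds and 21.0% ± 0.371 in diploid seeds, and *SWN* 77.7% ± 1.73 and 76.6% ± 0.353 in the same order of groups (SD, n = 2 each). The lower summed level of the class, 32.1 ± 3.50 RPKM in triploid seeds and 45.8 ± 1.53 RPKM in diploid seeds (SD, n = 2 each), came with a larger *MEA* and a smaller *CLF* share. *FIS2* made up 11.6% and 10.6% of *FIS2*, *VRN2* and *EMF2* in triploid seeds against 3.70% and 3.32% in diploid seeds, and the class summed to 23.0 ± 1.28 and 26.8 ± 0.965 RPKM in these groups (SD, n = 2 each). *PKR2* made up 33.8% and 36.1% of *PKL* and *PKR2* in triploid seeds against 6.90% and 6.77% in diploid seeds, a class added after its values were seen. The class sum was 43.9 ± 2.76 RPKM in triploid seeds and 37.9 ± 0.321 RPKM in diploid seeds (SD, n = 2 each). An exact permutation test of 2 libraries against 2 cannot reach 0.05, and the differences in shares are given as a description without a test.

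**Figure D2:**
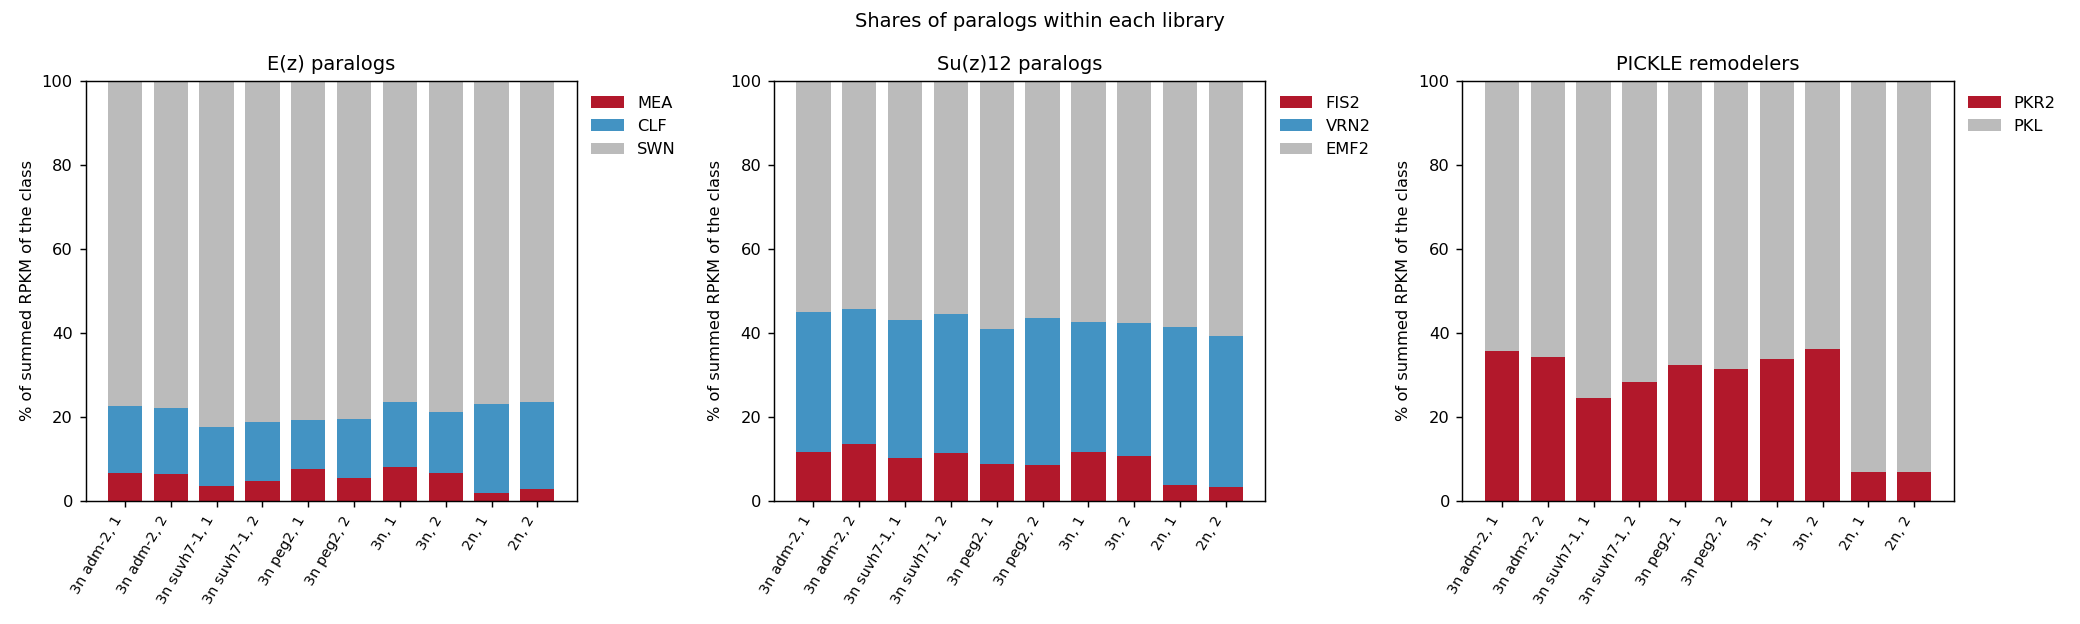
Share of each gene (y axis, % of summed RPKM of its class) in each library (x axis) for the Enhancer of zeste, Suppressor of zeste 12 and PICKLE classes. Bars stack to 100%, with *MEA*, *FIS2* and *PKR2* in red at the bottom. The red share is smallest in both diploid libraries of every panel, at 1.88% and 2.90% for *MEA*, 3.70% and 3.32% for *FIS2* and 6.90% and 6.77% for *PKR2*.

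In triploid *adm-2* seeds most of these genes had no called difference. Compared with triploid seeds, 1 of 10 genes was called higher against 8.12% of all genes, and 0 were called lower against 1.85%. At an unadjusted p under 0.05 the count was 7 by limma and 0 by the rank product. The share of all genes at that unadjusted level was not counted. The rank product called 0 of the 10 and 108 of all genes. The gene called by limma was *VRN2*, with 9.70 and 9.07 RPKM in triploid *adm-2* seeds against 6.84 and 7.58 RPKM in triploid seeds. The groups did not overlap and the log2 fold change was 0.38 (SE 0.09, adjusted p = 0.0407), but the call was lost in 11 of 18 limma alternatives, with adjusted p up to 0.224. The libraries whose removal ended it were those of triploid *adm-2* seeds (0.224 without replicate 1 and 0.127 without replicate 2), replicate 1 of triploid seeds (0.116) and each of the *peg2* and diploid libraries (0.0619 to 0.0646). *FIS2* had the largest log2 difference, 0.49 (SE 0.15, adjusted p = 0.0755), with 3.43 and 3.80 RPKM in triploid *adm-2* seeds against 2.56 and 2.53 RPKM in triploid seeds. It was called with a pseudocount of 1 (0.0433) and without the trend (0.0426), and *SWN* without replicate 2 of triploid seeds (0.0283).

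The other 8 genes differed by 0.081 to 0.33 on the log2 scale, with adjusted p of 0.0941 or more. *CLF* had 6.17 and 6.02 RPKM in triploid *adm-2* seeds, *SWN* 29.8 and 29.6 RPKM, *FIE* 22.5 and 21.7 RPKM and *EMF2* 16.1 and 15.3 RPKM. *PKL* had 32.1 and 31.1 RPKM, *MSI1* 51.8 and 53.1 RPKM, *MEA* 2.54 and 2.40 RPKM and *PKR2* 17.8 and 16.2 RPKM. All 10 differences were positive, and the scale mattered here. The median of all genes was 0.097 and 81.4% of all called genes were higher, against 0.0017 and 50.3% after rescaling by size factors. Under size factors *MEA* and *MSI1* turned slightly negative (-0.018 and -0.030). None of the 10 was then called, beside 1355 of all genes called higher and 1337 lower. *FIS2* made up 12.6% ± 1.24 of its class in triploid *adm-2* seeds and 11.1% ± 0.721 in triploid seeds, *MEA* 6.46% ± 0.199 and 7.27% ± 0.990 of its class, and *PKR2* 35.0% ± 1.06 and 34.9% ± 1.61 of its class in the same order of groups (SD, n = 2 each).

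*PKR2* was lower in triploid *suvh7-1* than in triploid seeds. It had 9.46 and 11.5 RPKM in triploid *suvh7-1* seeds against 14.2 and 16.5 RPKM in triploid seeds, without overlap, and the log2 fold change was -0.55 (SE 0.12, adjusted p = 0.0295). This was 1 gene of 10 called lower against 4.27% of all genes, and 0 were called higher against 4.87%. The call was lost without replicate 1 of triploid *suvh7-1* seeds (0.151), without replicate 2 of triploid seeds (0.146), in the fit to these groups alone (0.233) and without either library of triploid *adm-2* or diploid seeds (0.0564 to 0.0584). At an unadjusted p under 0.05 there were 3 genes by limma and 1 by the rank product. The share of all genes at that unadjusted level was not counted. The rank product called 0 of the 10 and 197 of all genes. *MEA* had 1.19 and 1.68 RPKM in triploid *suvh7-1* seeds against 2.36 and 2.27 RPKM in triploid seeds. The groups did not overlap, but the log2 difference of -0.68 (SE 0.26, 95% interval -1.27 to -0.08) did not pass the test (adjusted p = 0.164).

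*MSI1* had 57.4 and 53.5 RPKM in triploid *suvh7-1* seeds, with a log2 difference of 0.16 (adjusted p = 0.159) from triploid seeds. The remaining 7 genes differed by -0.015 to 0.16 on the log2 scale, and *FIS2*, *CLF* and *EMF2*, all slightly negative, turned slightly positive under size factors. *FIS2* had 2.30 and 2.76 RPKM in triploid *suvh7-1* seeds, *CLF* 4.74 and 4.82 RPKM, *SWN* 27.5 and 28.2 RPKM and *VRN2* 7.34 and 8.12 RPKM. *EMF2* had 12.7 and 13.6 RPKM, *FIE* 19.8 and 21.8 RPKM and *PKL* 29.2 and 29.3 RPKM. Both *SWN* values lay above those of triploid seeds, but *SWN* was not called (adjusted p = 0.311). How often 2 libraries separate from 2 over all genes was not counted. The share of *PKR2* in its class was 24.4% and 28.2% in triploid *suvh7-1* seeds against 33.8% and 36.1% in triploid seeds, and that of *MEA* 3.55% and 4.83% against 7.97% and 6.57%. Of the marker lists, summed pollen markers were 3.30 to 3.68 RPKM in triploid *suvh7-1* seeds against 14.3 to 28.3 RPKM in triploid seeds, with 4 of 8 called lower. Embryo markers summed to 16.0 to 16.7 RPKM in triploid *suvh7-1* seeds against 11.4 to 11.95 RPKM in triploid seeds with 1 of 7 called higher, and endosperm markers to 33.9 to 35.6 RPKM against 42.7 to 51.8 RPKM with 1 of 7 called higher and 3 lower. Over all genes 4.87% were called higher and 4.27% lower in this comparison. The part of the marker shifts in the lower *PKR2* level was not tested.

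In triploid *peg2* seeds 0 of 10 genes were called in either direction by limma or by the rank product, where limma called 0.0865% of all genes higher and 0.154% lower. The share of all genes at an unadjusted p under 0.05 was not counted, and each method had 1 of the 10 genes at that level. By limma it was *FIS2*, with 1.86 and 1.79 RPKM in triploid *peg2* seeds against 2.56 and 2.53 RPKM in triploid seeds. The groups did not overlap, and the log2 difference was -0.46 (SE 0.15, 95% interval -0.80 to -0.12, adjusted p = 0.4). *PKR2* had 13.4 and 11.96 RPKM in triploid *peg2* seeds, with a log2 difference of -0.27 (95% interval -0.56 to 0.01) from triploid seeds. The other 8 genes differed by -0.22 to 0.061. *MEA* had 2.41 and 1.82 RPKM in triploid *peg2* seeds, *CLF* 3.64 and 4.65 RPKM, *SWN* 25.2 and 26.7 RPKM and *VRN2* 6.87 and 7.23 RPKM. *EMF2* had 12.6 and 11.7 RPKM, *FIE* 17.4 and 17.5 RPKM, *MSI1* 48.4 and 51.1 RPKM and *PKL* 27.9 and 26.2 RPKM. The intervals of these 8 differences were widest for *MEA*, from -0.74 to 0.45, and narrowest for *PKL*, from -0.21 to 0.056.

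**Figure D3:**
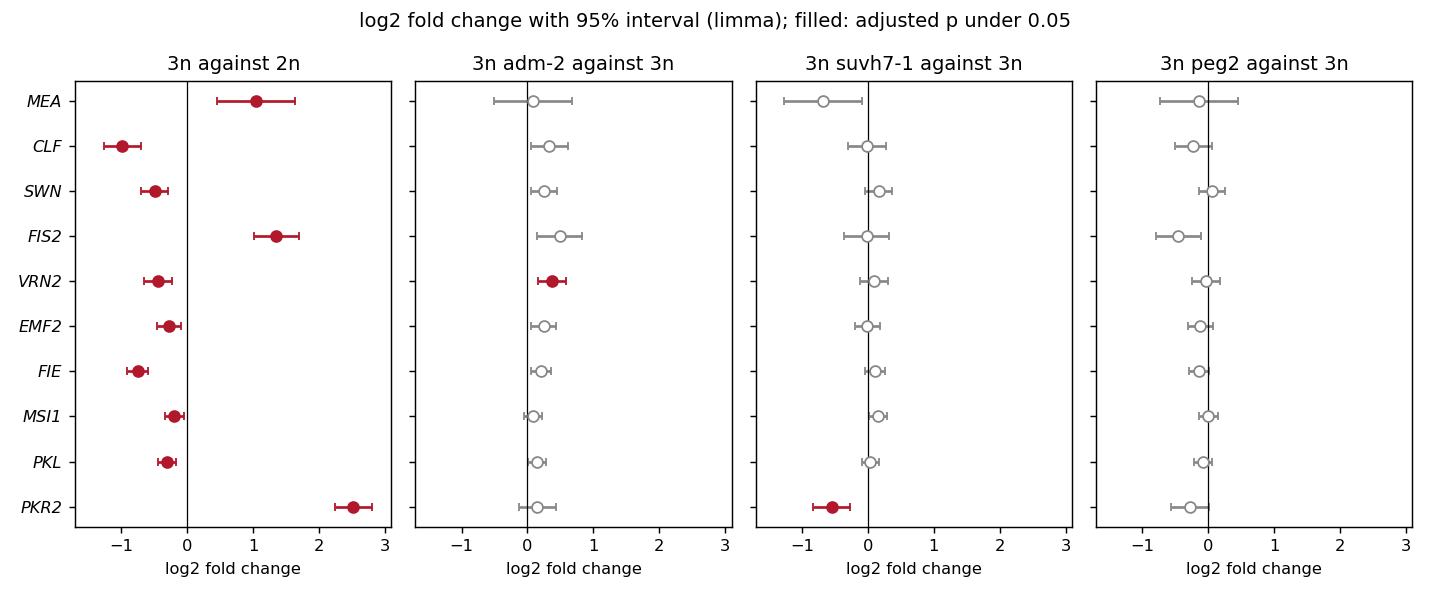
log2 fold change (x axis) of each gene (y axis) in triploid against diploid seeds and in each triploid mutant (*adm-2*, then *suvh7-1*, then *peg2*) against triploid seeds. Points are limma estimates with 95% intervals, filled red where the adjusted p is under 0.05. All 10 are filled in the first panel, *VRN2* alone in the second, *PKR2* alone in the third and none in the fourth, and the last 3 panels share the triploid libraries.

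The mutants were also set against diploid seeds, which serve all these comparisons. In triploid *adm-2* seeds 3 genes were called higher against 22.7% of all genes, *PKR2* (log2 fold change 2.67), *FIS2* (1.84) and *MEA* (1.13). Called lower were 2 genes against 19.9%, *CLF* (-0.65) and *FIE* (-0.55). *SWN* (-0.24, adjusted p = 0.055) and *PKL* (-0.16, 0.0586) were just outside the threshold and were called without either library of triploid seeds (0.0081 for *SWN* and 0.0364 for *PKL*), and *VRN2* (-0.070), *EMF2* (-0.026) and *MSI1* (-0.11) had intervals that include 0. In triploid *suvh7-1* seeds 2 genes were higher against 12.6% of all genes, *PKR2* (1.97) and *FIS2* (1.33), while *MEA* (0.37, adjusted p = 0.315) was not called. *MSI1* was not called either (-0.032, adjusted p = 0.733) and was at 0.066 under size factors. Lower were 6 genes against 23.6%, *CLF* (-0.99), *FIE* (-0.64), *VRN2* (-0.35), *SWN* (-0.33), *EMF2* (-0.28) and *PKL* (-0.27). Of all called genes 34.8% were higher in this comparison, and 47.0% after rescaling by size factors. In triploid *peg2* seeds 3 genes were higher against 19.3% of all genes, *PKR2* (2.25), *MEA* (0.90) and *FIS2* (0.89), and the other 7 were lower against 27.2%. These were *CLF* (-1.21), *FIE* (-0.89), *VRN2* (-0.48), *SWN* (-0.43), *EMF2* (-0.39), *PKL* (-0.38) and *MSI1* (-0.19). Leaving out replicate 1 of diploid seeds ended the call of *MEA* in triploid *adm-2* (adjusted p = 0.0591) and *peg2* seeds (0.129), as did leaving out replicate 1 of triploid *adm-2* (0.0555) or *peg2* seeds (0.126). In triploid *suvh7-1* seeds, leaving out a *suvh7-1* or a diploid library ended the calls of *SWN*, *VRN2* or *EMF2* (up to 0.143). The call of *MSI1* in triploid *peg2* seeds was lost under size factors (-0.093, adjusted p = 0.247) and without the trend (0.0946). Leaving out any single *adm-2*, *peg2* or diploid library also ended it. The rank product called 0 of 10 in each, with 3 genes at an unadjusted one-sided p under 0.05 in triploid *suvh7-1* seeds and 2 in each of the others.

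Direct comparison of the mutants found differences in the contrasts with triploid *adm-2* seeds. In triploid *peg2* against triploid *adm-2* seeds 7 genes were called lower, against 14.8% of all genes, and 0 higher, against 4.21%. *FIS2* had the largest difference, with 1.86 and 1.79 RPKM in triploid *peg2* seeds against 3.43 and 3.80 RPKM in triploid *adm-2* seeds and a log2 fold change of -0.94 (SE 0.15, adjusted p = 0.00674). The others were *CLF* (-0.56), *PKR2* (-0.42), *VRN2* (-0.41), *EMF2* (-0.37), *FIE* (-0.34) and *PKL* (-0.23). Not called were *MEA* (-0.23), *SWN* (-0.19) and *MSI1* (-0.076, and 0.063 under size factors). The median of all genes was -0.13 here, and 22.1% of called genes were higher. Rescaling by size factors moved this share to 54.1%. After it 4 of the 10 were called, beside 2886 of all genes called higher and 2446 lower. The number called was 1 without replicate 1 and 0 without replicate 2 of triploid *adm-2* seeds, and 1 without replicate 1 and 2 without replicate 2 of triploid *peg2* seeds. In triploid *suvh7-1* against triploid *adm-2* seeds *PKR2* was called lower (-0.70, SE 0.12, adjusted p = 0.0157), 1 gene of 10 against 10.6% of all genes, and 0 were higher against 1.86%. The call was lost without replicate 1 (0.123) or 2 (0.0827) of triploid *adm-2* seeds and without replicate 1 of triploid *suvh7-1* seeds (0.086). Not called were *MEA* (-0.77), *FIS2* (-0.50), *CLF* (-0.35), *VRN2* (-0.28), *EMF2* (-0.26) and *MSI1* (0.079), nor *PKL* (-0.11), *FIE* (-0.091) and *SWN* (-0.090), which turned slightly positive under size factors. Here too the median of all genes was -0.13, and 15.0% of called genes were higher, or 47.9% after rescaling. Rescaled, 2 of the 10 genes were called, *PKR2* and, as higher, *MSI1* (0.22), beside 1687 of all genes higher and 1838 lower. Between triploid *peg2* and triploid *suvh7-1* seeds 0 of 10 were called, against 3.37% of all genes higher and 5.72% lower. At an unadjusted p under 0.05 there were 3 of the 10 by limma and 0 by the rank product, with the share of all genes not counted. The 3 were *FIS2* (-0.44), *FIE* (-0.25) and *MSI1* (-0.16). The log2 differences of *MEA* (0.54) and *PKR2* (0.27) were positive, and those of *CLF* (-0.21), *VRN2* (-0.13), *PKL* (-0.12), *EMF2* (-0.11) and *SWN* (-0.10) negative, all with intervals that include 0.

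Ordered by group level, *PKR2* ran from triploid *adm-2* through triploid, triploid *peg2* and triploid *suvh7-1* to diploid seeds, and only the last step passed the test between neighbours (log2 difference 1.97, adjusted p = 1.15e-05). *FIS2* was highest in triploid *adm-2* seeds, then triploid, triploid *suvh7-1* and triploid *peg2* seeds, and again only the step to diploid seeds passed (0.89, adjusted p = 0.00142). *MEA* followed the order of *PKR2*, and no pair of neighbours differed beyond the spread. *FIE* and *CLF* were highest in diploid seeds, with a called step to triploid *adm-2* seeds (0.55, adjusted p = 0.000402, and 0.65, adjusted p = 0.00367) and no called step after it. *SWN*, *VRN2*, *EMF2*, *PKL* and *MSI1* were also highest in diploid seeds, and none of their neighbouring groups differed by the test.

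The expression of partners and regulators of PRC2 was read from lists of related genes. Of 16 genes of PRC1 and PRC2-associated proteins 3 were called higher and 5 lower in triploid against diploid seeds, with a median log2 fold change of -0.18 beside -0.012 over all genes. Of all tested genes 19.5% were called higher and 25.2% lower, so that these counts are near the background, and the same shares apply to the lists that follow. Higher were AT3G23060, a RING/U-box protein gene (log2 fold change 4.03, adjusted p = 1.56e-06), and *VEL2* (2.62, 1.46e-05) and *VEL3* (2.59, 0.000311), relatives of the PHD protein gene *VIN3*. Lower were *ULT1*, a trithorax-like antagonist of PRC2 (-2.02, 1.8e-06), *VIN3*, which joins PRC2 during vernalization (-1.45, 0.00035), and the PRC1 ubiquitin ligase gene *RING1A* (-1.12, 0.000128), with 2 more below the size named here. Of 8 PRC2 recruiters 0 were higher and 5 lower, with a median of -0.54. *VAL1*, a B3 factor that brings PRC2 to *FLC* and to seed maturation genes, had 18.9 and 20.6 RPKM in triploid seeds against 49.2 and 45.9 RPKM in diploid seeds (-1.27, adjusted p = 1.01e-05). *AZF1* was also called (-1.27, adjusted p = 0.00589), at 0.0323 and 0 RPKM in triploid seeds against 0.147 and 0.212 RPKM in diploid seeds, levels of a few reads. Of 5 H3K27me3 demethylase genes 3 were lower, led by *ELF6* (-0.75, 0.000142) and AT5G46910, of the jumonji family (-0.75, 0.000222). Of 6 relatives of *MSI1* and *PKL*, 4 were lower, led by *FVE* (-0.83, 7.15e-06) and *MSI2* (-0.48, 0.000173).

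**Figure D4:**
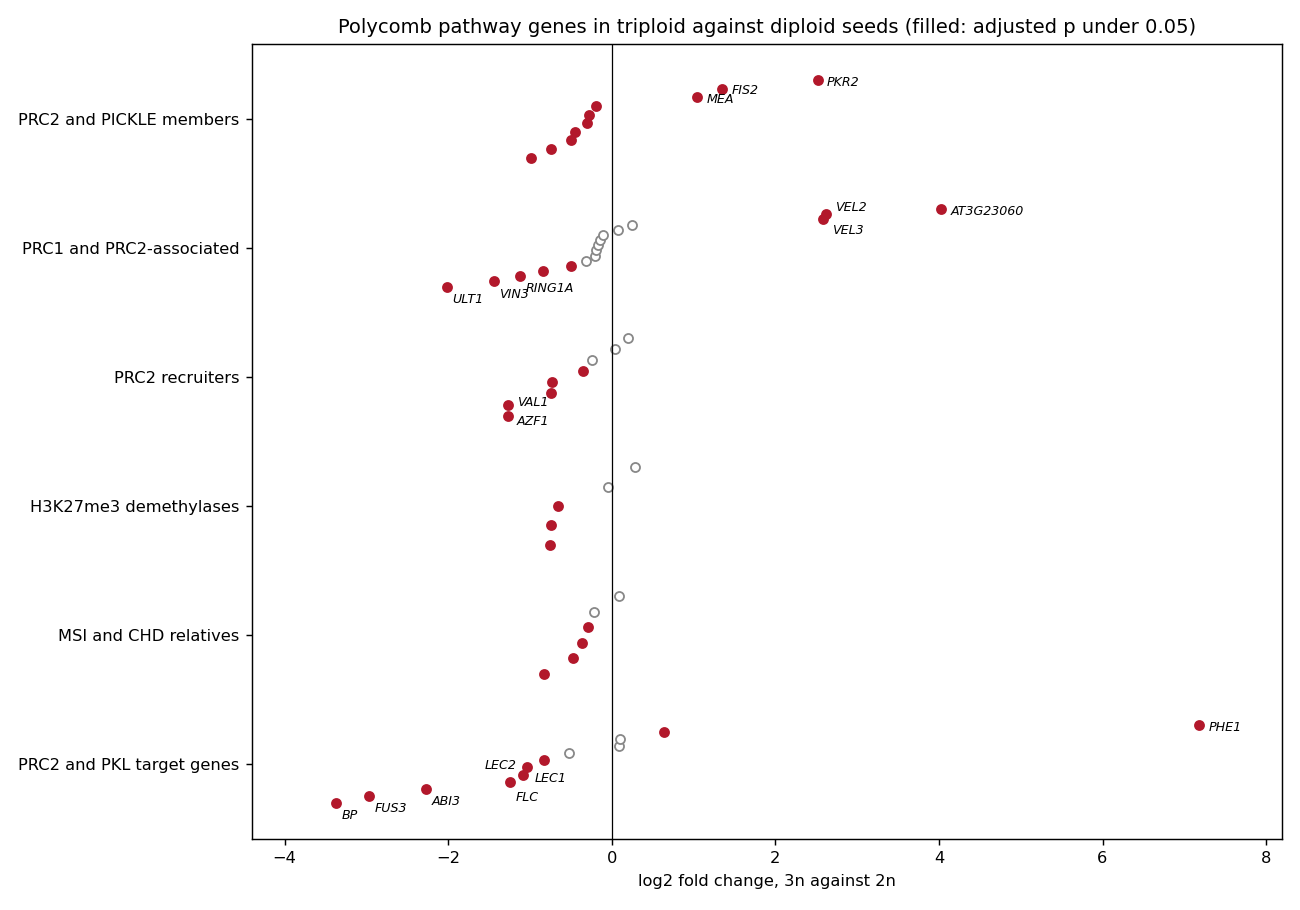
log2 fold change in triploid against diploid seeds (x axis) of each gene in 6 lists (y axis), sorted within a list. Filled points have an adjusted p under 0.05, and called genes past 1 are named. *PHE1* lies farthest to the right at 7.18 and *BP* farthest to the left at -3.37.

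Among 12 known target genes of PRC2 or PKL, 2 were higher and 7 lower in triploid against diploid seeds, with a median log2 fold change of -0.93, where 19.5% of all genes were called higher and 25.2% lower. *PHE1*, a MADS-box gene repressed by the seed PRC2 and expressed from the paternal allele, had 133 and 135 RPKM in triploid seeds against 0.909 and 0.749 RPKM in diploid seeds (log2 fold change 7.18, SE 0.08, adjusted p = 2.17e-09). All the other targets past 1 were lower. They were the meristem gene *BP* (-3.37, adjusted p = 3.06e-05), the seed maturation regulators *FUS3* (-2.96, 1.85e-05), *ABI3* (-2.27, 1.18e-05), *LEC1* (-1.08, 0.00166) and *LEC2* (-1.03, 0.00418), and *FLC*, the repressor of flowering (-1.25, 6.72e-05). *FUS3*, *ABI3*, *LEC1* and *LEC2* are expressed in the embryo, whose marker sums and calls are given above. Whether the shift in embryo markers has a part in the lower levels of these genes was not tested.

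In triploid *adm-2* against triploid seeds, 4 of the 16 associated genes, 3 of the 8 recruiters, 1 of the 5 demethylases and 4 of the 12 targets were called higher, and none in these lists lower. Over all genes 8.12% were called higher and 1.85% lower, and the 81.4% of calls that were higher became 50.3% under size factors. The demethylase gene *JMJ30* had 8.04 and 7.67 RPKM in triploid *adm-2* seeds against 3.79 and 3.38 RPKM in triploid seeds (log2 fold change 1.11, adjusted p = 0.0152). *LEC2* had 13.0 and 13.8 RPKM against 5.44 and 4.50 RPKM in the same groups (1.42, 0.00767), and *BP* 1.51 and 0.920 RPKM against 0.502 and 0.429 RPKM (1.18, 0.0381). Smaller were the differences of *VIN3* (0.71, 0.0492), *ULT1* (0.57, 0.0142), *VAL1* (0.57, 0.00844) and *BPC1*, a GAGA-binding recruiter (0.43, 0.0203). Each of these 7 calls was lost without either library of triploid *adm-2* seeds and in the fit to the compared groups alone (adjusted p = 0.0673 to 0.142). Those of *VIN3* (0.0813), *BPC1* (0.0744) and *BP* (0.0514) were also lost with size factors. *VIN3* passed in only 3 of 18 limma alternatives and *BP* in 6. In triploid *suvh7-1* seeds 4 of 12 targets were higher and 1 lower, where 4.87% of all genes were higher and 4.27% lower, led by *LEC2* with 9.83 and 12.9 RPKM in triploid *suvh7-1* seeds (1.17, adjusted p = 0.0111). AT3G23060 was lower, with 3.07 and 2.25 RPKM in triploid *suvh7-1* seeds against 4.73 and 6.22 RPKM in triploid seeds (-1.02, adjusted p = 0.0143), beside 2 associated genes called higher, and *MSI2* was higher (0.33, adjusted p = 0.00697). The calls of *LEC2*, AT3G23060 and *MSI2* were lost without replicate 2 of triploid *suvh7-1* seeds. They were also lost in the fit to the compared groups alone (adjusted p = 0.135, 0.202 and 0.102). Those of *LEC2* and AT3G23060 were lost without replicate 2 of triploid seeds as well. None of the listed genes was called in triploid *peg2* against triploid seeds.

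The genes whose levels followed *PKR2*, *FIS2* and *MEA* most closely were sought among the 18383 genes whose RPKM averaged 1 or more, by Pearson's r of log2(RPKM + 0.1) over the 10 libraries, as a description in which the difference between triploid and diploid seeds weighs most. Closest to *PKR2* were AT1G28030, a 2-oxoglutarate-dependent oxygenase gene (r = 0.998), AT1G76820, of the eIF-2 family (0.996), and the D-type cyclin gene *CYCD4;2* (0.996). Closest to *FIS2* were the kinesin gene *ATK4* (0.982), AT4G08510 (0.982) and AT1G28630 (0.979). Closest to *MEA* were the RNase III-like gene *RTL1* (0.986), *LCR72*, which encodes a small cysteine-rich protein (0.985), and AT2G31800, a protein kinase gene (0.972).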

How the data were processed

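Seeds of 5 crosses, with 2 libraries each, were sequenced as 100-base paired ends. Per the labels and methods, quality trimming was followed by alignment to TAIR10 in TopHat2 2.0.10 (at most 1 alignment per read, minimum anchor 10 bases), and the authors deposited RPKM values. The tool and gene models behind the RPKM, and whether strand was used, are not given in the sources used here. Whether a read that fits several paralogs was placed once or left out is not stated either.

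Values were compared as log2(RPKM + 0.1) with limma 3.58.1 in R 4.3.3 (lmFit, eBayes with a trend), fitted to all 10 libraries and the 26601 genes above 0 in at least 2 of them, with Benjamini-Hochberg adjustment per contrast and calls at an adjusted p under 0.05. Fold changes on this scale understate changes of low genes. The rank product of the study (100 permutations, pfp under 0.05) was rewritten and run as an alternative, and its calls were not compared with those of the study. Both methods were also run on simulated data with normal noise and few changed genes. That setting is unlike these data and cannot show how either method performs here. Python 3.11.15 (pandas 2.3.3, numpy 2.4.6, matplotlib 3.10.9) served for tables and figures.

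Depth was estimated from the value of 1 read in 9610 single-exon genes. Only 68.9% to 74.0% of low values fell within 0.1 of whole reads, so reads were not recovered and no count test was run. Coordinates and sequences are of TAIR10.1 (RefSeq), where all 87 listed genes were matched, and 32835 of the 33602 table genes.

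The members and lists were chosen with earlier results of these data known. All 10 members are named in every comparison, and of each other list the called genes with a log2 fold change past 1, or otherwise the 2 called genes with the largest change. Alternatives were pseudocounts of 1 and 0.01, a filter at a mean RPKM of 1, no filter, size factors, a replicate block, only the groups compared, no trend, the rank product and leaving out each library. Replicate numbers were not taken to pair libraries, since the labels tie them to no shared source and the correlation of same-numbered deviations ran from -0.202 to 0.241.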

Additional observations from a re-analysis of the deposited data

How the results depend on the processing

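The 3 higher and 7 lower genes of triploid against diploid seeds kept their direction in all 18 limma alternatives. Leaving out 1 library gave 7 to 10 called genes in this comparison, 0 to 2 in triploid *adm-2* and 0 to 1 in triploid *suvh7-1* against triploid seeds, 5 to 8 in triploid *suvh7-1* against diploid seeds, 0 to 8 in triploid *peg2* and 0 to 1 in triploid *suvh7-1* against triploid *adm-2* seeds, and 0 to 1 in triploid *peg2* against triploid *suvh7-1* seeds. In the fit to the compared groups alone, which has fewer libraries to estimate the spread, 6 genes were called in triploid against diploid seeds, 4 in triploid *peg2* against triploid *adm-2* seeds, and 0 in triploid *adm-2* and *suvh7-1* against triploid seeds and in triploid *suvh7-1* against triploid *adm-2* seeds. Counts of all genes for the fits with 6 and 4 calls are not given here. The rank product called 0 of the 10 genes in every comparison.

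With a pseudocount of 1, 2 genes were called in triploid *adm-2* against triploid seeds, and 2 in triploid *suvh7-1* against triploid *adm-2* seeds, as with a filter at a mean RPKM of 1, with size factors and without the trend. Size factors left 0 called in triploid *adm-2* against triploid seeds and 4 in triploid *peg2* against triploid *adm-2* seeds. The cause of these shifts was not tested.

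Over all genes the rank product called 279 genes in triploid against diploid seeds (limma 11894), 108 and 197 in triploid *adm-2* and *suvh7-1* against triploid seeds (limma 2654 and 2432), 293 in triploid *adm-2*, 276 in triploid *suvh7-1* and 291 in triploid *peg2* against diploid seeds, and 66, 111 and 206 in the 3 comparisons between mutants. Fits to the compared groups alone called 0 genes in each comparison of a mutant with triploid seeds, in triploid *suvh7-1* against triploid *adm-2* and in triploid *peg2* against triploid *suvh7-1* seeds. In triploid *peg2* against triploid seeds limma called 64 genes, 108 with a pseudocount of 1, and 21 to 65 without 1 library. Without 1 library the counts ran from 281 to 2567 in triploid *adm-2* and 1226 to 2438 in triploid *suvh7-1* against triploid seeds, 752 to 5941 in triploid *peg2* and 5 to 4246 in triploid *suvh7-1* against triploid *adm-2* seeds, and 1007 to 2893 in triploid *peg2* against triploid *suvh7-1* seeds.

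Replicate numbers were not taken to pair the libraries, and whether they do is not given by the labels. A replicate block left 0 called genes of the 10 in triploid *adm-2* against triploid seeds and moved all called genes in triploid *peg2* against triploid seeds to 37. With crossed numbers, tried after seeing the data in the 3 comparisons whose same-numbered deviations had a correlation under -0.1, the last count was 36, and the number of the 10 genes called was 0 there, 9 in triploid *peg2* and 8 in triploid *suvh7-1* against diploid seeds.

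Reversals were limited to differences that were not called, with log2 values near 0. Size factors reversed *MEA* (-0.018) and *MSI1* (-0.030) in triploid *adm-2* against triploid seeds, *FIS2* (0.017), *CLF* (0.020) and *EMF2* (0.024) in triploid *suvh7-1* against triploid seeds, *MSI1* in triploid *suvh7-1* against diploid seeds (0.066) and in triploid *peg2* against triploid *adm-2* seeds (0.063), and *FIE* (0.052), *SWN* (0.053) and *PKL* (0.034) in triploid *suvh7-1* against triploid *adm-2* seeds. Leaving out 1 library gave both signs, with ranges of -0.072 to 0.048 for *CLF*, -0.068 to 0.051 for *EMF2* and -0.14 to 0.11 for *FIS2* in triploid *suvh7-1* against triploid seeds, -0.089 to 0.037 for *EMF2* in triploid *adm-2* and -0.083 to 0.019 for *MSI1* in triploid *suvh7-1* against diploid seeds, and -0.34 to 0.052 for *MEA*, -0.034 to 0.044 for *MSI1*, -0.072 to 0.19 for *SWN* and -0.11 to 0.043 for *VRN2* in triploid *peg2* against triploid seeds. Shares within a class were not tested, since with 2 libraries leaving out 1 moves a mean by a fixed part of the SD and rescaling a library leaves its shares as they are. At the estimated depth, counting error limits *MEA* and *FIS2* most, to 11.8% and 11.3% where their reads were fewest, if read ends come in pairs.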

Other observations

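Of the associated genes, AT3G23060, *VEL2* and *VEL3* had the 3 largest positive log2 fold changes in triploid against diploid seeds, and their levels in each library follow. AT3G23060 had 4.76 and 5.37 RPKM in triploid *adm-2* seeds, 3.07 and 2.25 RPKM in triploid *suvh7-1* seeds, 5.39 and 5.68 RPKM in triploid *peg2* seeds and 4.73 and 6.22 RPKM in triploid seeds, against 0.229 and 0.248 RPKM in diploid seeds. All 8 triploid libraries were above both diploid ones. *VEL2* had 3.27 and 2.86 RPKM in triploid *adm-2* seeds, 1.91 and 2.38 RPKM in triploid *suvh7-1* seeds, 2.91 and 2.97 RPKM in triploid *peg2* seeds and 2.41 and 2.89 RPKM in triploid seeds, against 0.396 and 0.298 RPKM in diploid seeds. *VEL3*, its neighbour on the chromosome by locus number, had between 0.659 and 1.69 RPKM in the triploid libraries against 0.137 and 0.170 RPKM in diploid seeds.

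*PHE1* stayed far above the diploid level in every triploid group, with 126 and 129 RPKM in triploid *adm-2* seeds, 101 and 98.0 RPKM in triploid *suvh7-1* seeds and 107 and 106 RPKM in triploid *peg2* seeds. *ULT1* had 29.0 and 26.8 RPKM in triploid *adm-2* seeds, 25.4 and 28.1 RPKM in triploid *suvh7-1* seeds, 17.0 and 20.6 RPKM in triploid *peg2* seeds and 18.1 and 19.4 RPKM in triploid seeds, against 75.8 and 76.2 RPKM in diploid seeds. No triploid library reached the diploid level of this gene.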
